A study of Mus musculus with 6 samples.

Results

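Of the genes that mark the earliest blood cells, 9 were read on 6 Affymetrix arrays of Flk1+ mesodermal cells sorted from mouse embryoid bodies: Kit, Itga2b, Csf1r, Ptprc, Plek, Was, Mpo, Alox5ap and Pf4. The members are all probe sets, the sets of short probes that read a transcript, whose annotated symbol is one of these genes alone. That gave 15 probe sets out of 45037 on the array, and 8 of the 15, covering 7 of the 9 genes, were bright enough to be tested. Kit, Itga2b, Plek, Was, Mpo and Alox5ap lay higher in Scl reporter-positive cells than in reporter-negative cells of the same line or in SclKO cells. The mean differences of their tested probe sets were -2.48 to -1.44 natural log units for SclKO against reporter-positive cells, but none passed the test adjusted over all probe sets. Csf1r differed little between groups, and Ptprc and Pf4 were dim on all 6 arrays.

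Blood arises in the embryo from Flk1+ mesoderm through a progenitor that can form endothelium and blood. Scl, the product of Tal1, is a basic helix-loop-helix factor that binds DNA with GATA factors, LMO2 and LDB1 and is needed for every blood lineage. As cells commit to blood they gain the receptor kinase KIT and the integrin CD41 (the product of Itga2b), and CD45 (the product of Ptprc) appears on them later. Pleckstrin and WASP work inside platelets and white cells, myeloperoxidase and the leukotriene pathway belong to myeloid cells, and platelet factor 4 is stored by megakaryocytes.

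ES cells were grown for 2 days in pre-differentiation medium and then, from 100000 cells per well, as embryoid bodies to day 4. SclKO cells (n = 2 arrays) came from a line without functional Scl derived from J1 ES cells of strain 129S4/SvJae, and were sorted for Flk1 only, while their titles carry the label Scl-. WT Scl+ cells (n = 2) were Flk1+ and human CD4+ cells of a reporter line, derived from R1 ES cells of a (129/Sv x 129/Sv-CP)F1 blastocyst, in which human CD4 knocked into the Scl locus marks Scl expression on the cell surface. WT Scl- cells (n = 2) were the Flk1+ and human CD4- cells of that same reporter line. All groups share the Flk1 sort, and no further allele or agent is named. Each genotype is represented by 1 line, and in comparisons with SclKO the loss of Scl, the ES line and the sort gate cannot be told apart. The labels do not say whether replicates were separate cultures, so the p-values speak only of the spread among these arrays. In such bulk samples, fewer cells of a type and less RNA per cell cannot be told apart.

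Levels are natural logs of the deposited values and differences are in log units. The base to which the authors raised their values is not stated: 1 log unit is 2-fold if the natural log is an RMA log2 value, or 2.72-fold in the values as deposited, and folds are given in that order. The natural log ran from 1.18 to 14.85, the range RMA gives in log2, so the first fold is the likelier reading. The second describes the deposited values only. A value under the 40th percentile of its array, between 4.54 and 4.59, is called dim and gives no exact level. A probe set was tested if it lay above that limit on at least 2 arrays. Median levels were 5.2 to 5.25 on all arrays. WT Scl+ replicate 2 stood apart from the others: it correlated with the other arrays at r of 0.9371 to 0.9637 across probe sets, which are not independent replicates, and lay at -78.4 on the first principal component, against -11.5 to 38.1 for the rest. The differences of the tested members from WT Scl+ are therefore also given without it. Tal1 was at 5.71 and 6.14 in SclKO, 8.65 and 8.78 in WT Scl+, and 6.52 and 7.97 in WT Scl-. The WT Scl- arrays thus differed from each other in Tal1, with replicate 2 nearer to WT Scl+. Kdr, the gene of the sort marker Flk1, was between 10.83 and 11.35 on all arrays.

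The promoters of 5 of the genes that differed most are shown because these genes lay high together in WT Scl+, and Scl complexes bind E-boxes and GATA sites. The windows run from 250 bases before to 50 after the start of the gene and come from RefSeq, build GRCm38.p6. A RefSeq promoter was used for 7 of the 9 genes: Alox5ap had no entry, and Csf1r was not read. Capitals mark matches to GATAA, to the E-box CANNTG, to the ETS core AGGAAG and to the RUNX site TGTGGT, each on either strand.
Kit, chr5:75574737-75575036, strand +: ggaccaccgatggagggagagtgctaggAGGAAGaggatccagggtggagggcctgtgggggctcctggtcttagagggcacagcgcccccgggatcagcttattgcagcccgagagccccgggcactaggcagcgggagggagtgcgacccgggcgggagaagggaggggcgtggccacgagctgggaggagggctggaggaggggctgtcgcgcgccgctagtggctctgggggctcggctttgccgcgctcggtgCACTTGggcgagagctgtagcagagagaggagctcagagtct
Itga2b, chr11:102469834-102470133, strand -: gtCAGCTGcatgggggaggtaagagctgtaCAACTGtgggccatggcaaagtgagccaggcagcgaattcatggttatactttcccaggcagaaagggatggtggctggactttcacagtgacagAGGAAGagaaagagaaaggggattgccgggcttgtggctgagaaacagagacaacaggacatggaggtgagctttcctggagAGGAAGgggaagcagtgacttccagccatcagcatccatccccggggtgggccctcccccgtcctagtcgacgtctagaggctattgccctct
Plek, chr11:17008669-17008968, strand -: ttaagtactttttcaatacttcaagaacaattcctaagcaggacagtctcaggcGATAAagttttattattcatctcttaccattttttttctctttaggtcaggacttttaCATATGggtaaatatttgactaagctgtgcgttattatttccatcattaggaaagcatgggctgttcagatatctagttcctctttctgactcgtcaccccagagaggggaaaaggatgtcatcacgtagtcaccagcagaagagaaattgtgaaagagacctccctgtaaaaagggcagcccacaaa
Was, chrX:8090442-8090741, strand -: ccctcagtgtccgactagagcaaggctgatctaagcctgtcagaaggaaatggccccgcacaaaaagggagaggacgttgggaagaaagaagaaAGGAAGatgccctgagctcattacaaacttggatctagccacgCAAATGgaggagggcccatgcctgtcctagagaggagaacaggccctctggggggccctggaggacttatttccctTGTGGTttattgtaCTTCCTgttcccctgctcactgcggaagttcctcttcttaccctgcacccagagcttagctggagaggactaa
Mpo, chr11:87793534-87793833, strand +: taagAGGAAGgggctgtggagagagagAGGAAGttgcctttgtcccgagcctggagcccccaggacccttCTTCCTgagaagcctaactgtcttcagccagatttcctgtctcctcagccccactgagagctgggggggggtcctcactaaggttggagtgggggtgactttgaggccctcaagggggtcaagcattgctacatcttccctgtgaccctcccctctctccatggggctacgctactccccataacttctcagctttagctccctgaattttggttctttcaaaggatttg
None of the matches in these 5 windows overlap. Of the 5, the Plek window alone holds GATAA, 196 bases before the start, and 25.4% of 32851 promoters of the same length hold it. E-boxes were found in the Kit, Itga2b, Plek and Was windows and not in that of Mpo. This letter pattern is common, being in 72.3% of promoters. The Itga2b window holds 2 of them, of which CAGCTG starts 248 bases before the start. AGGAAG was found 3 times in the Mpo window, 2 times each in those of Itga2b and Was, 1 time in that of Kit and not in that of Plek, against 35.4% of promoters with at least 1. The Was window also holds TGTGGT, 37 bases before the start, as 16.8% of promoters do. The matches describe these letters only, and the 5 windows have no motif in common. Nor are they particular to the genes shown. The window of Pf4, which was dim, holds GATAA 1 time, E-boxes 2 times and AGGAAG 1 time. The 2 windows of Ptprc, dim as well, hold GATAA 0 and 2 times, E-boxes 1 and 3 times and AGGAAG 3 and 1 times.

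Kit, the receptor tyrosine kinase for stem cell factor, was read by 2 probe sets. The first, 1452514_a_at, was above the dim limit on every array, at 5.58 and 6.06 in SclKO, 6.99 and 7.64 in WT Scl+, and 5.86 and 6.43 in WT Scl-. Both WT Scl+ arrays lay above all others, while the SclKO and WT Scl- arrays overlapped. The difference was -1.49 log units for SclKO against WT Scl+ (SE 0.32, 2.82-fold or 4.45-fold lower, limma adjusted p = 0.184) and 1.17 for WT Scl+ against WT Scl- (SE 0.32, 2.25-fold or 3.23-fold higher, limma adjusted p = 0.439). Against WT Scl-, SclKO differed by -0.32 log units, with a 95% interval from -1.09 to 0.45. The other Kit probe set, 1415900_a_at, was dim on 2 arrays and stood at 4.36 and 4.81 in SclKO, 5.48 and 6.58 in WT Scl+, and 4.23 and 5.36 in WT Scl-. It put WT Scl+ on top as well, by a gap of 0.12 log units over the nearest WT Scl- array. Its differences were -1.44 (SE 0.49) for SclKO against WT Scl+ and 1.23 (SE 0.49) for WT Scl+ against WT Scl-, close in size to those of 1452514_a_at. Without WT Scl+ replicate 2 the difference of SclKO against WT Scl+ was -1.17 log units for 1452514_a_at and -0.89 for 1415900_a_at. For WT Scl+ against WT Scl-, that of 1415900_a_at was 0.68 without WT Scl+ replicate 2 and 0.67 without WT Scl- replicate 1, and that of 1452514_a_at was 0.85 without WT Scl+ replicate 2.

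Itga2b, the alpha subunit of the fibrinogen receptor of platelets and an early surface mark of embryonic blood, was above the dim limit on every array. Its probe set 1417758_at was at 6.03 and 6.84 in SclKO, 7.87 and 8.54 in WT Scl+, and 6.86 and 7.33 in WT Scl-. The 3 groups did not overlap and ran in the order SclKO, WT Scl-, WT Scl+, but only 0.02 log units separated the nearest SclKO and WT Scl- arrays. SclKO lay 3.42-fold or 5.89-fold below WT Scl+ (-1.77 log units, SE 0.36, limma adjusted p = 0.174). WT Scl+ lay 2.17-fold or 3.05-fold above WT Scl- (1.12, SE 0.36, limma adjusted p = 0.473). The difference between SclKO and WT Scl- was -0.66 log units, with a 95% interval from -1.53 to 0.22. It was -0.25 without SclKO replicate 1, -1.06 without SclKO replicate 2 and -0.42 without WT Scl- replicate 2. Without WT Scl+ replicate 2, Itga2b differed by -1.44 log units between SclKO and WT Scl+ and by 0.78 between WT Scl+ and WT Scl-.

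Csf1r, the macrophage growth factor receptor, was read by 3 probe sets, of which 1423593_a_at was above the dim limit on every array. It was at 5 and 5.39 in SclKO, 5.16 and 5.53 in WT Scl+, and 4.99 and 4.86 in WT Scl-. SclKO and WT Scl+ overlapped, with a difference of -0.15 log units and a 95% interval from -0.67 to 0.37. WT Scl+ lay above WT Scl- by 0.42 log units (SE 0.21, limma adjusted p = 0.62). Leaving out WT Scl+ replicate 2 gave Csf1r differences of 0.03 and 0.24 in these comparisons. Csf1r 1419872_at and 1419873_s_at were dim on 5 of 6 arrays each and were not tested. The array above the limit was WT Scl- replicate 2 for 1419872_at, at 4.87, and WT Scl- replicate 1 for 1419873_s_at, at 4.73, so the probe sets of this gene ranked the arrays differently.

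Ptprc, the phosphatase CD45 found on all white cells, was dim on all 6 arrays by both of its probe sets. Ptprc 1422124_a_at was at 1.6 and 1.82 in SclKO, 1.73 and 1.83 in WT Scl+, and 1.4 and 1.51 in WT Scl-, among the lowest 2% of values on every array. Ptprc 1440165_at was at 3.69 and 3.71 in SclKO, 3.43 and 3.71 in WT Scl+, and 3.78 and 4.03 in WT Scl-. The probe sets put WT Scl+ on opposite sides of WT Scl-, by 0.33 and -0.34 log units, and neither gives a level. Pf4, the chemokine of platelet granules, was also dim throughout. It was at 3.1 and 3.36 in SclKO, 3.14 and 4.55 in WT Scl+, and 3.14 and 3.1 in WT Scl-. Its value of 4.55 on WT Scl+ replicate 2, the array that stood apart, lay just under that array's limit of 4.58, while WT Scl+ replicate 1 lay among the other groups.

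**Figure D1:**
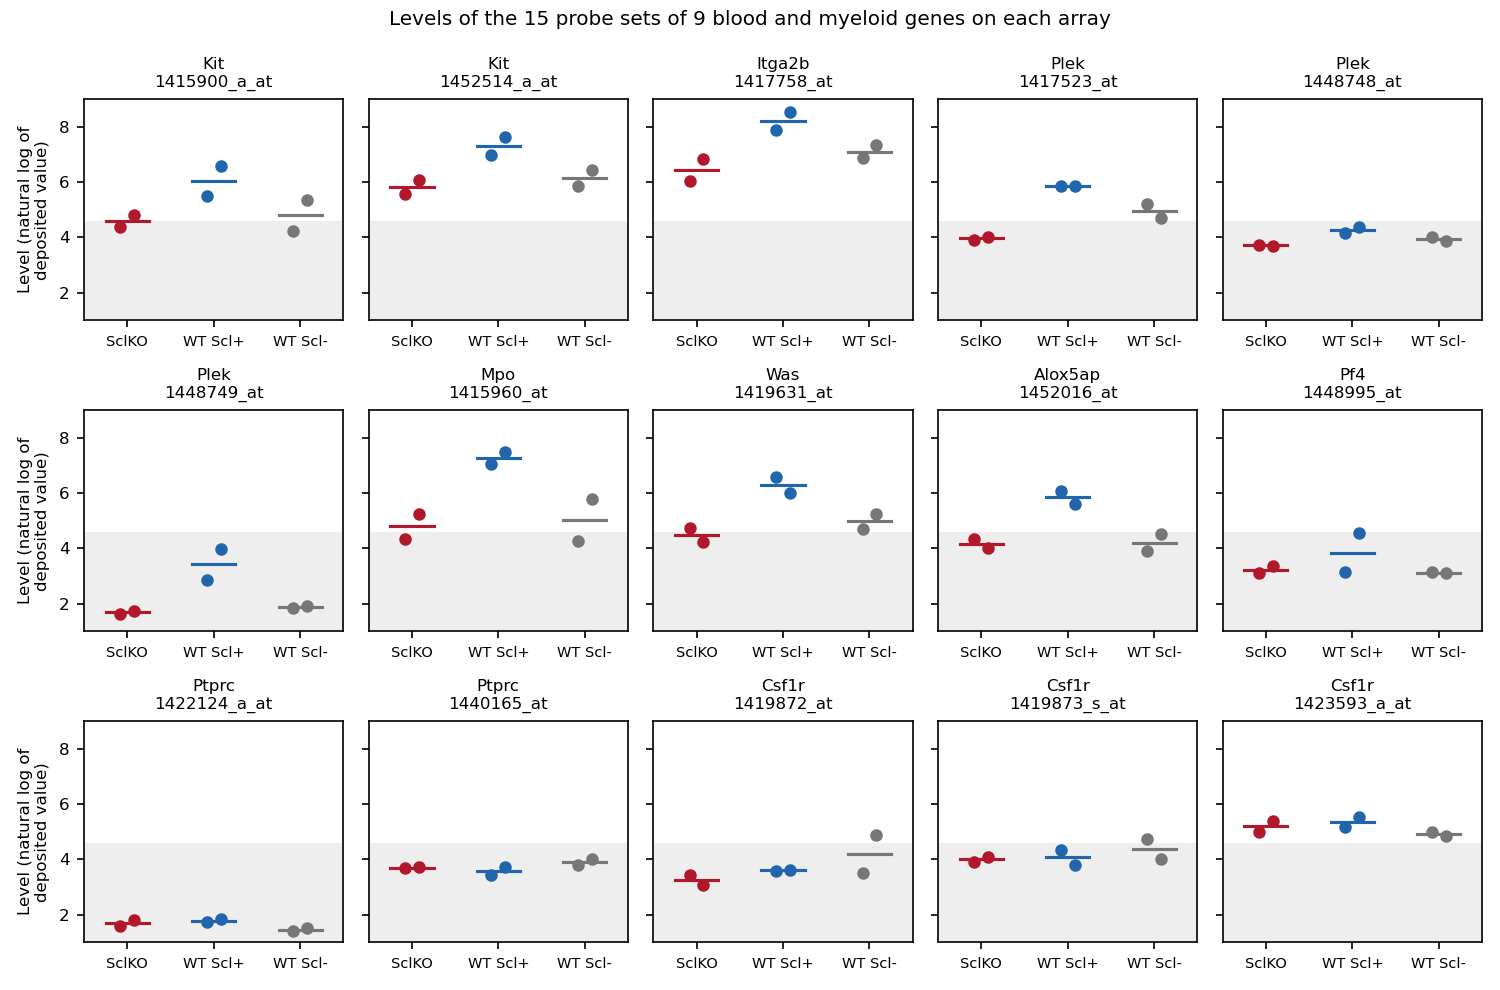
Level of each of the 15 probe sets (natural log of the deposited value, vertical axis) in SclKO, WT Scl+ and WT Scl- (horizontal axis). Points are arrays, bars are means of 2 arrays and the grey band covers values under 4.54, the lowest dim limit. WT Scl+ lies on top for Kit, Itga2b, Plek, Mpo, Was and Alox5ap, while Ptprc and Pf4 lie in or at the edge of the grey band.

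Plek encodes pleckstrin, a main substrate of protein kinase C in platelets and leukocytes. Its probe set 1417523_at was at 3.91 and 4.02 in SclKO, 5.84 and 5.87 in WT Scl+, and 5.21 and 4.71 in WT Scl-. The groups did not overlap, both SclKO arrays were dim, and replicates differed little in SclKO (SD 0.08) and WT Scl+ (SD 0.02). SclKO lay below WT Scl+ by 1.88 log units as measured (-1.88, SE 0.21, limma adjusted p = 0.118, rank 20 by p among 28363 probe sets tested). With dim values set to the limit this was -1.29, so SclKO was at least 2.44-fold or 3.62-fold lower for this probe set. Without WT Scl+ replicate 1, Plek passed as lower in SclKO (-1.9 log units, limma adjusted p = 0.0381), while without WT Scl+ replicate 2 the difference was -1.87 log units (limma adjusted p = 0.223), and its adjusted p ranged up to 0.608 over the alternatives. WT Scl+ lay above WT Scl- by 0.89 log units (SE 0.21, limma adjusted p = 0.439), and by 0.88 without WT Scl+ replicate 2. Plek had the lowest unadjusted p of the members between SclKO and WT Scl- (-0.99 log units, SE 0.21, and -0.39 with dim values at the limit, unadjusted p = 0.00274, limma adjusted p = 0.82). The 2 other Plek probe sets were dim on all arrays. Plek 1448749_at lay between 1.64 and 3.99 and 1448748_at between 3.7 and 4.37, and neither gives a level or an order of the groups.

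Was encodes WASP, a blood-restricted activator of actin branching. It was at 4.74 and 4.22 in SclKO, 6.56 and 5.99 in WT Scl+, and 4.71 and 5.23 in WT Scl-. Both WT Scl+ arrays lay above all others, by 0.76 log units over the nearest, and SclKO and WT Scl- overlapped. The difference was -1.8 log units for SclKO against WT Scl+ (SE 0.3, 3.47-fold or 6.03-fold lower, at the limit 3.05-fold or 5.01-fold, limma adjusted p = 0.143). For WT Scl+ against WT Scl- it was 1.31 log units (SE 0.3, 2.47-fold or 3.69-fold, limma adjusted p = 0.439). With WT Scl+ replicate 2 left out, Was differed by -2.08 and 1.59, both larger than with all arrays.

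Mpo encodes myeloperoxidase, the enzyme of neutrophil and monocyte granules that makes hypochlorous acid. It was at 4.34 and 5.24 in SclKO, 7.06 and 7.48 in WT Scl+, and 4.27 and 5.8 in WT Scl-. Both WT Scl+ arrays lay more than 1 log unit above all others, while replicate 1 of SclKO and of WT Scl- was dim. Mpo had the largest difference of the members in both comparisons with WT Scl+. It was -2.48 log units for SclKO against WT Scl+ (SE 0.54, 5.57-fold or 11.9-fold lower, at the limit 5.21-fold or 10.8-fold, limma adjusted p = 0.188). For WT Scl+ against WT Scl- it was 2.23 log units (SE 0.54, 4.7-fold or 9.32-fold higher, at the limit 4.24-fold or 8.02-fold, limma adjusted p = 0.439). Of all probe sets tested, 0.363% had a larger difference between SclKO and WT Scl+ in either direction. The size depended on the WT Scl- array used, being 1.47 log units when WT Scl- replicate 1 was left out and 3 when WT Scl- replicate 2 was. Without WT Scl+ replicate 2 it was 2.03 against WT Scl-, and -2.27 for SclKO against WT Scl+.

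Alox5ap encodes FLAP, the membrane protein that hands arachidonic acid to 5-lipoxygenase for leukotriene synthesis. It was at 4.35 and 4 in SclKO, 6.08 and 5.6 in WT Scl+, and 3.9 and 4.51 in WT Scl-. All SclKO and WT Scl- arrays were dim, so Alox5ap was tested only because the WT Scl+ arrays were not, and WT Scl+ had to be the higher group. As measured it was -1.67 log units for SclKO against WT Scl+ (SE 0.28, limma adjusted p = 0.144) and 1.64 for WT Scl+ against WT Scl- (SE 0.28, limma adjusted p = 0.439). At the limit these were -1.28 and 1.26 log units, at least 2.43-fold or 3.6-fold and at least 2.4-fold or 3.53-fold. Alox5ap as measured differed by -1.91 and 1.88 when WT Scl+ replicate 2 was left out.

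The genes did not follow the replicates in the same way. In WT Scl+, Kit, Itga2b and Mpo were higher on replicate 2 than on replicate 1, whereas Was and Alox5ap were higher on replicate 1 and Plek was level. In SclKO, Kit, Itga2b and Mpo were again higher on replicate 2 and Was on replicate 1. Alox5ap was dim on both SclKO arrays and gives no order there. In WT Scl-, 6 of the 8 tested probe sets were higher on replicate 2, with a median of 0.54 log units, the exceptions being Plek and Csf1r. Alox5ap is among these 6, though it was dim on both WT Scl- arrays. The 16 endothelial markers, of which Emcn, Robo4 and Clec14a were dim on all arrays, averaged 5.47 and 6.23 in SclKO, 6.89 and 7.54 in WT Scl+, and 5.16 and 6.46 in WT Scl-. The 11 erythroid markers, of which the globin genes Hbb-y and Hba-a1 and the band 3 gene Slc4a1 were dim on all arrays, averaged 4.58 and 4.71 in SclKO, 5.99 and 5.64 in WT Scl+, and 4.69 and 5 in WT Scl-. In WT Scl+, 14 of the 16 endothelial markers were higher on replicate 2, while the erythroid markers were split, 6 being higher on replicate 2 and 5 on replicate 1. The endothelial order was not particular to WT Scl+, as 15 were higher on replicate 2 in SclKO and 14 in WT Scl-. Of the 11 erythroid markers, 7 were higher on replicate 2 in SclKO and 10 in WT Scl-. The part of either cell type in the members' values was not tested. With 2 arrays per group these patterns are descriptions.

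Over the whole set, none of the 8 tested probe sets passed an adjusted p of 0.05 in any of the 3 comparisons. In SclKO against WT Scl+ this rule called 0.00353% of probe sets as higher and 0.00705% as lower, namely Cdkn1c 1417649_at, Gm6958 1426936_at and 1456319_at, which carries no gene symbol here. At an unadjusted p under 0.05, 7 of the 8 were lower in SclKO, where 5.68% of all probe sets tested were, and none was higher, where 7.35% were. The exception was Csf1r. Alox5ap is among the 7, and its direction was fixed by the filter, which leaves 6 of 7. Of all 15 probe sets, including dim ones, 10 lay lower in SclKO without overlap of the arrays, where 18.2% of all probe sets did, and none lay higher, where 20.6% did. Of these 10, 3 were dim on every array compared: Plek 1448748_at, Plek 1448749_at and Csf1r 1419872_at. The median difference was -1.44 log units over the 15 members and 0.01 over all 45037 probe sets. Since the genes were picked with earlier results of these data known, these counts describe them and test nothing.

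In WT Scl+ against WT Scl-, limma called 0% of probe sets in either direction after adjustment, and the smallest adjusted value was 0.439. By unadjusted p (under 0.05), 7 of the 8 members tested were higher in WT Scl+, against 4.44% of all probe sets tested, and none was lower, against 4.94%. Leaving out Alox5ap, whose direction the filter fixed, leaves 6 of 7. Without overlap of the arrays, 11 of the 15 were higher, against 16.7% of all, and Ptprc 1440165_at was lower, against 18.8%. Plek 1448748_at, Plek 1448749_at and Ptprc 1422124_a_at, 3 of the 11, were dim on all arrays, as was Ptprc 1440165_at. The median difference was 0.89 log units over the 15 members and -0.02 over all probe sets.

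SclKO and WT Scl- differed far less in these genes. In this comparison 0.00353% of probe sets passed the adjusted test as higher and 0.00705% as lower, again Cdkn1c, Gm6958 and 1456319_at, and no member was among them. Plek was the only member under an unadjusted p of 0.05, as lower, where 2.77% of probe sets were, and none was higher, where 2.7% were. Both SclKO arrays are dim for Plek, and with dim values at the limit its difference was -0.39 log units (limma adjusted p = 0.901). Without overlap, 6 of the 15 were lower in SclKO, against 18.9% of all, and 2 were higher, against 19.7%, namely Csf1r 1423593_a_at and Ptprc 1422124_a_at, which was dim. The 6 are the 3 probe sets of Plek, Itga2b, Ptprc 1440165_at and Csf1r 1419872_at, and 4 of them, all but Itga2b and Plek 1417523_at, were dim on at least 3 of the 4 arrays compared. The median difference of the 15 was -0.22 log units. The median over the 8 tested was -0.28, and leaving out WT Scl- replicate 1 made it -0.75, whereas leaving out WT Scl- replicate 2 made it 0.08. Both comparisons with SclKO use the same SclKO arrays, and both with WT Scl+ use the same WT Scl+ arrays, so they are not independent of each other.

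**Figure D2:**
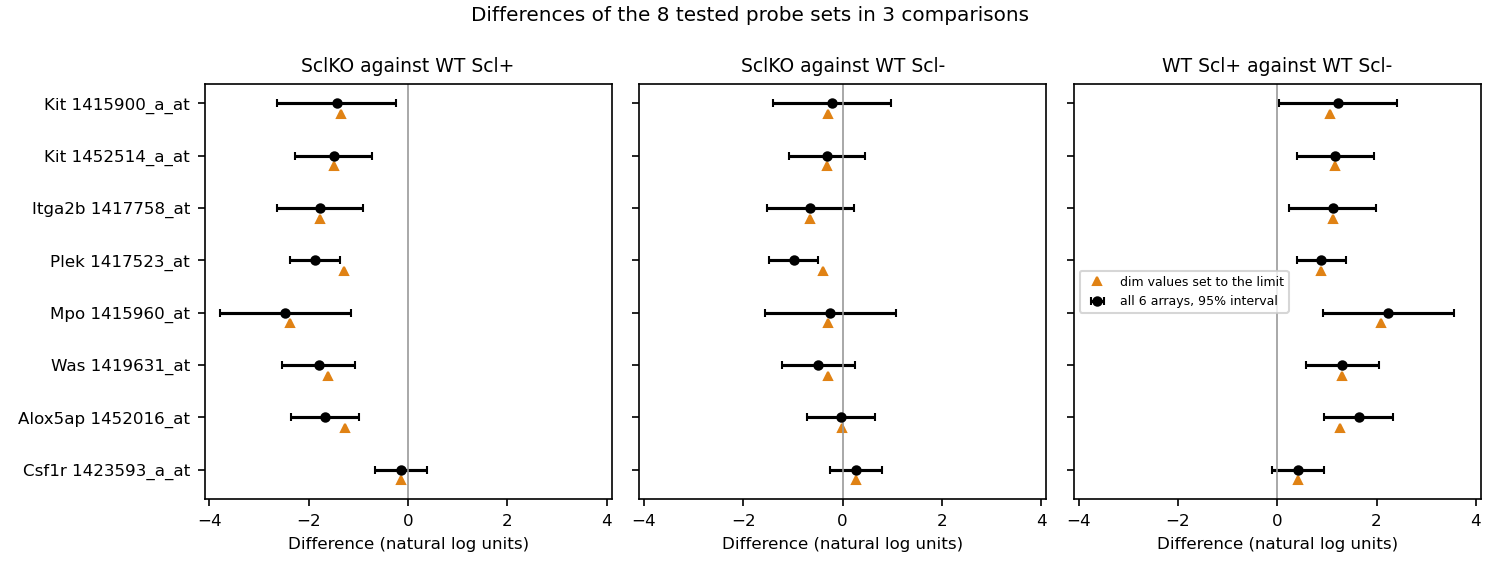
Difference of each of the 8 tested probe sets in natural log units (horizontal axis) in 3 comparisons, with 95% intervals from limma and, as triangles, the difference with dim values set to the limit. For all but Csf1r the interval lies below 0 in SclKO against WT Scl+ and above 0 in WT Scl+ against WT Scl-, before any adjustment for the number of probe sets. In SclKO against WT Scl- the differences lie between -0.99 for Plek and 0.27 for Csf1r.

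**Figure D3:**
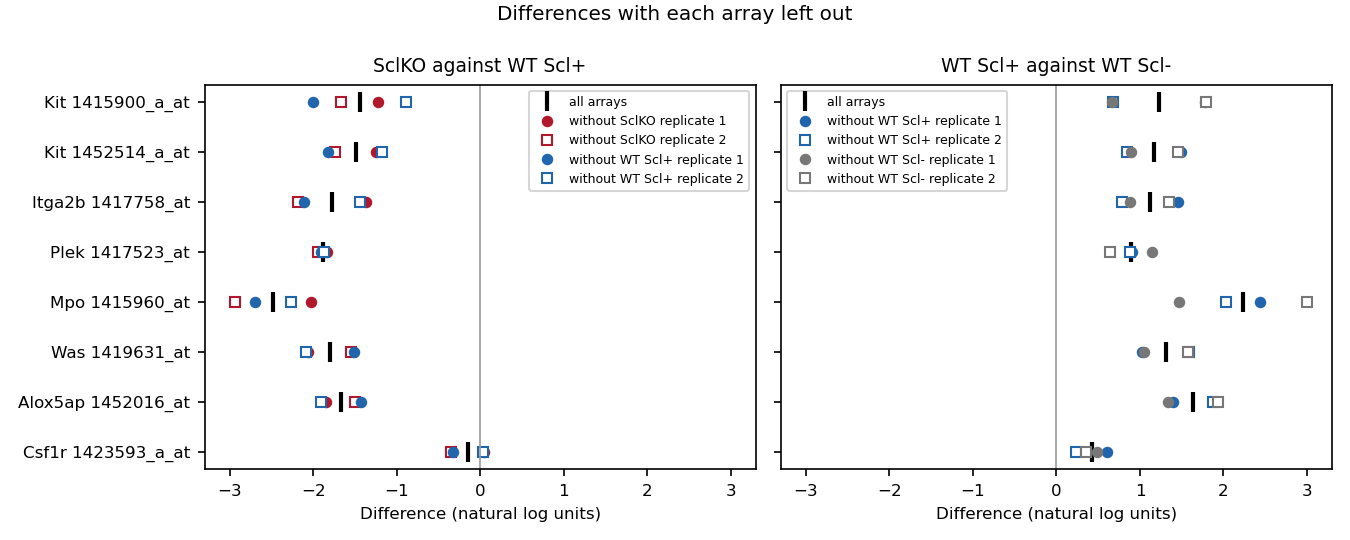
Difference of each tested probe set in natural log units (horizontal axis) with all arrays (black bar) and without 1 array of the compared groups (coloured points). Kit, Itga2b, Plek, Mpo, Was and Alox5ap stay below 0 for SclKO against WT Scl+ and above 0 for WT Scl+ against WT Scl-. Csf1r changes sign in the left panel, and Mpo in the right panel runs from 1.47 to 3.

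Itga2b, Plek and Mpo lie on chromosome 11. The median over probe sets of that chromosome was -0.133 log units in SclKO against WT Scl+ and -0.161 in SclKO against WT Scl-, whereas the other autosomes lay between 0.047 and 0.095 and between 0.011 and 0.054. Beside these stand -1.77 for Itga2b, -1.88 for Plek and -2.48 for Mpo in the comparison with WT Scl+. In that with WT Scl- they are -0.66 for Itga2b, -0.99 for Plek, or -0.39 at the limit, and -0.25 for Mpo, nearer to the shift of the chromosome. The part of the chromosome in these differences was not tested. In WT Scl+ against WT Scl- chromosome 11 was at -0.029, within the range of the other autosomes (-0.077 to -0.014).

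Ligands and protein partners of these genes were read from a list of 15, of which 12 were tested, with 1 probe set per gene. Some of them, such as Itgb3 and Wipf1, also stand on the lists of other blood genes. None passed the adjusted test in any comparison. Kitl, the ligand of the Kit receptor, ran opposite to Kit. It was at 6.45 and 6.11 in SclKO, 5.72 and 5.23 in WT Scl+, and 6.1 and 6.2 in WT Scl-, with both WT Scl+ arrays below all others. Kitl differed by 0.81 log units for SclKO against WT Scl+ (SE 0.22, limma adjusted p = 0.256) and by -0.67 for WT Scl+ against WT Scl- (SE 0.22, limma adjusted p = 0.48). Itgb3, whose product pairs with that of Itga2b, was near the limit, at 4.22 and 4.84 in SclKO, 5.12 and 4.86 in WT Scl+, and 4.42 and 4.75 in WT Scl-. SclKO differed from WT Scl+ in Itgb3 by -0.47 log units (SE 0.26, limma adjusted p = 0.501). Alox5, the 5-lipoxygenase that FLAP serves, lay between 4.74 and 5.03 on all arrays, and Lta4h, the enzyme that makes leukotriene B4, between 7.56 and 7.69. The WASP partner Wipf1 differed by -0.16 log units (SE 0.2) and the WASP relative Wasl by 0.02 (SE 0.17) between SclKO and WT Scl+. Csf1, the ligand of the Csf1r receptor, lay between 6.05 and 6.62, and the other ligand, Il34, was dim on all arrays. The median difference of the 12 was 0.04 log units in SclKO against WT Scl+ and -0.12 in WT Scl+ against WT Scl-, next to 0.04 and -0.02 over all genes tested.

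Other blood genes were taken from 4 lists, again with 1 probe set per gene, and none of their genes passed the adjusted test in any comparison. Of all 12922 genes tested, 2614 lay lower and 2994 higher in SclKO than in WT Scl+ without overlap, with a median of 0.04 log units. Of 7 early blood surface genes tested, 5 lay lower in SclKO than in WT Scl+ without overlap and Spn, the sialoprotein CD43, lay higher. Cd34, a sialomucin of blood progenitors and endothelium, was at 3.41 and 4.17 in SclKO, 5.07 and 6.12 in WT Scl+, and 2.93 and 4.61 in WT Scl-. SclKO, where both arrays were dim, differed from WT Scl+ in Cd34 by -1.81 log units as measured (SE 0.62, limma adjusted p = 0.326) and by at least 2.04-fold or 2.8-fold with dim values at the limit (-1.03). Procr, the protein C receptor of endothelium and blood stem cells, differed by -0.78 (SE 0.37) and the hyaluronan receptor Cd44 by -0.57 (SE 0.16). The integrin Itga4, dim on 1 SclKO array, differed by -0.71 as measured (SE 0.29) and by -0.37 with dim values at the limit. Like Ptprc, the leukocyte and progenitor surface genes Cd33, Cd48, Flt3, Slamf1, Il7r, Csf2rb and Csf3r were dim on all 6 arrays.

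Of 8 megakaryocyte and platelet genes tested, 5 lay lower in SclKO than in WT Scl+ without overlap and none higher, with a median of -0.89 log units. Without WT Scl+ replicate 2 this median was -0.6, and that in WT Scl+ against WT Scl- was 0.59, next to 0.88 with all arrays. The transcription factors Gfi1b and Nfe2 had the largest differences of this list. Gfi1b, a repressor needed for red cells and platelets, was at 4.27 and 4 in SclKO, 6.74 and 6.46 in WT Scl+, and 4.76 and 5.33 in WT Scl-, groups that did not overlap, as for Plek. Both SclKO arrays were dim for Gfi1b, which differed by -2.47 log units from WT Scl+ as measured (SE 0.25, limma adjusted p = 0.11) and by at least 4.11-fold or 7.67-fold with dim values at the limit (-2.04). Nfe2 differed by -2.16 (SE 0.47, limma adjusted p = 0.19). F2r, a thrombin receptor, differed by -1.55 (SE 0.46) and Vwf, the carrier of clotting factor VIII, by -1.32 (SE 0.52), or by -0.61 without WT Scl+ replicate 2. The platelet glycoprotein genes Gp9 and Gp1bb, by contrast, differed by 0.21 (SE 0.18) and 0.06 log units (SE 0.17). Both lay lower in WT Scl+ than in WT Scl- without overlap (-0.28 and -0.27), with Gp1bb dim on both WT Scl+ arrays. Alongside Pf4, the platelet genes Ppbp, Gp5, Gp6, Selp, Tubb1 and Rgs18 were dim on all arrays.

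Of the 20 measured genes of the granule and macrophage list, 11 were dim on all 6 arrays, among them Elane, Prtn3 and Ctsg, which encode proteases stored with myeloperoxidase, and the macrophage genes Adgre1, Itgam, Cd14 and Lyz2. Over the 9 tested the median was 0.04 log units in SclKO against WT Scl+, the same as over all genes tested, with 3 lower and 1 higher without overlap. The 1 higher was Ctsc, the protease that activates granule enzymes, at 10.04 and 10.37 in SclKO, 8.86 and 9.11 in WT Scl+, and 9.37 and 9.72 in WT Scl-. Its difference was 1.22 log units (SE 0.21, limma adjusted p = 0.148). Spi1, the myeloid transcription factor PU.1, was at 4.32 and 4.58 in SclKO, 5.17 and 5.56 in WT Scl+, and 4.5 and 4.97 in WT Scl-. Both SclKO arrays were dim for Spi1, which differed by -0.91 log units from WT Scl+ as measured (SE 0.24, limma adjusted p = 0.235) and by -0.8 at the limit. The mannose receptor gene Mrc1 was dim on all SclKO and WT Scl- arrays, so, as for Alox5ap, WT Scl+ had to be the higher group. Mrc1 differed by -0.84 log units in SclKO against WT Scl+ (SE 0.34, -0.66 at the limit). In WT Scl+ against WT Scl- it differed by 1.33 (SE 0.34, 0.64 at the limit). The signalling adaptor gene Tyrobp lay on the same side as Mpo, by -0.36 (SE 0.18) and 0.54 (SE 0.18) in these comparisons. In WT Scl+ against WT Scl-, 4 of the 9 were higher without overlap and 2 lower, beside 2445 higher and 2386 lower of all 12922 genes tested. Mrc1, whose direction the filter fixed, is among these 4 and among the 3 lower in SclKO than in WT Scl+.

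Of 11 signalling and cytoskeletal genes of leukocytes tested, 4 lay lower in SclKO than in WT Scl+ without overlap and 1 higher, with a median of -0.22 log units. Ikzf1, the gene of the zinc finger factor Ikaros of lymphoid progenitors, was at 4.49 and 4.88 in SclKO, 8.31 and 8.38 in WT Scl+, and 4.41 and 6.58 in WT Scl-, and differed by -3.66 log units (SE 0.65, limma adjusted p = 0.148). The lysosomal gene Laptm5 differed by -2.56 (SE 0.98). It was at 6.05 and 6.81 in SclKO, 8.8 and 9.19 in WT Scl+, and 4.9 and 8.18 in WT Scl-, so that the WT Scl- arrays spanned both SclKO arrays. Coro1a, an actin-binding coronin, ran the other way by 0.52 log units (SE 0.2). Lcp1 was at 6.83 and 7.3 in SclKO, 7.11 and 7.7 in WT Scl+, and 4.89 and 6.51 in WT Scl-. Unlike most members, Lcp1 lay higher in SclKO than in WT Scl-, by 1.36 log units (SE 0.53, limma adjusted p = 0.898). The median of the 11 in that comparison was 0.06. In WT Scl+ against WT Scl-, the median differences were 0.54 log units for the surface list, 0.88 for the megakaryocyte list, 0.1 for the granule and macrophage list and 0.28 for the leukocyte signalling list. The endothelial and erythroid markers, which lay on the same side as the members, had medians of 1.51 and 1.4 in that comparison and -1.51 and -1.47 in SclKO against WT Scl+. The 10 primitive streak markers lay on the opposite side, at -1.38 and 1.53. With WT Scl+ replicate 2 left out, the medians in WT Scl+ against WT Scl- were 1.09 for endothelial, 1.65 for erythroid and -0.86 for primitive streak markers, and -0.13 for the granule and macrophage list. The leukocyte signalling list was then at -0.05 in SclKO against WT Scl+ and 0.15 in WT Scl+ against WT Scl-.

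**Figure D4:**
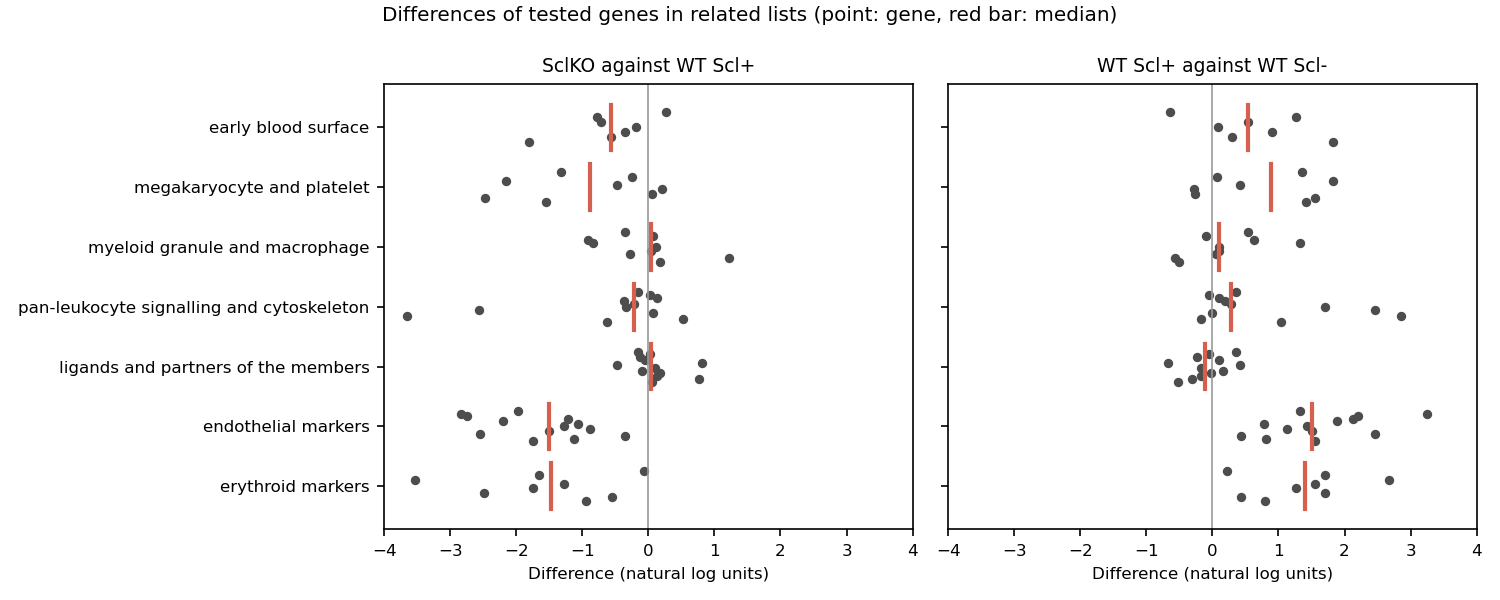
Difference of each tested gene in natural log units (horizontal axis) by list (vertical axis), in SclKO against WT Scl+ and in WT Scl+ against WT Scl-. Points are genes and red bars are list medians. The megakaryocyte list has its median at -0.89 and 0.88, while the granule and macrophage list has genes on both sides and medians of 0.04 and 0.1.

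The genes whose levels followed the members most closely were sought among 1133 genes with an SD of at least 0.5 log units over the 6 arrays. Each was set against the mean of 7 centred member profiles, which was -0.78 and -0.52 in SclKO, 0.88 and 1.03 in WT Scl+, and -0.52 and -0.08 in WT Scl-. The highest Pearson correlations over the 6 arrays were those of Marchf3 (r = 0.995), Fermt3 (r = 0.994), Kank3 (r = 0.99), Cmas (r = 0.988) and Slc1a3 (r = 0.987). Marchf3 was dim on all SclKO (3.91 and 4.16) and WT Scl- arrays (4.07 and 4.49). It was tested only because the WT Scl+ arrays (5.1 and 5.13) were not dim, so WT Scl+ had to be its higher group. Fermt3 encodes kindlin-3, an integrin activator of blood cells, and was at 6.5 and 6.75 in SclKO, 8.68 and 8.61 in WT Scl+, and 6.9 and 7.25 in WT Scl-. Slc1a3, a glutamate transporter gene, was at 5.47 and 5.74 in SclKO, 7.74 and 7.69 in WT Scl+, and 5.91 and 6.71 in WT Scl-. The arrays are shared by all of these profiles, and with 6 points drawn from 3 groups such values are descriptions of likeness only.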

How the data were processed

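The deposited values are RMA expression values on a score scale of unstated base, 1 per probe set and array. RMA, affy and limma are named per the submitters' processing notes, with no versions. Values ran from 3.256 to 2822995, and 1040 to 1153 probe sets per array exceeded 65535, the ceiling of a 16-bit scanner. The natural log, 1.18 to 14.85, has the range RMA gives in log2. The design had assumed log values, so the natural log was taken first. Unused per-sample columns numbered 0.

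Of 45101 probe sets, 64 controls were left out. The platform annotation gave 1 symbol for 34945, several for 932 and none for 9160, and symbols were updated through Entrez identifiers to RefSeq (GRCm38.p6). A mean per group was fitted to 28363 probe sets with limma 3.58.1 in R 4.3.3 (residual degrees of freedom 3, prior 3.13), two-sided, with Benjamini-Hochberg adjustment. The fit was tested on simulated data. Lists used the probe set with the highest mean per gene and excluded genes not analysed here. Named list genes are those with the largest differences among genes whose groups do not overlap, up to 4 per list and comparison, plus ligands, partners and dim genes chosen after their values were seen. Members, lists and tests were chosen with earlier results of these data known. Alternatives were the dim filter, a replicate block, 1 probe set per gene, a floor, renewed quantile normalization, an intensity trend, only the groups compared, and leaving out each array. Precision is limited by the number of arrays.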

Additional observations from a re-analysis of the deposited data

How the results depend on the processing

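In each comparison, 107 values of the tested members were recomputed. Direction and side of the threshold were kept in 107 for WT Scl+ against WT Scl-, 104 for SclKO against WT Scl+ and 101 for SclKO against WT Scl-. The filters, 1 probe set per gene, the block, the trend and the arrays of the third group leave each difference unchanged by design. In those settings only the side of the threshold could change, so the counts say little about direction. The values not kept came from leaving out 1 array. Plek changed its side of the threshold without WT Scl+ replicate 1 (-1.9 log units). That fit left WT Scl+ replicate 2 alone in its group and called far more probe sets in all, so the change says little of Plek itself. The 4 probe sets that changed sign were Csf1r 1423593_a_at in SclKO against WT Scl+ (-0.35 to 0.05), and in SclKO against WT Scl- Kit 1415900_a_at (-0.78 to 0.35), Mpo (-1.01 to 0.52) and Alox5ap (-0.34 to 0.27). The median of the tested members in SclKO against WT Scl- ran from -0.75 to 0.08. Leaving out WT Scl+ replicate 2 was an alternative chosen for the lists after seeing the data. The median of the granule and macrophage list then changed sign in WT Scl+ against WT Scl- (-0.13). That of the ligand list did so in SclKO against WT Scl+ (-0.05). The medians of pluripotency (-0.17) and endoderm markers (-0.08), lists not described above, also changed sign in SclKO against WT Scl+.

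Of all probe sets, 3 were called in SclKO against WT Scl+, with 1 for 1 probe set per gene, where fewer were tested, 37 with an intensity trend, 27 with only the groups compared and 0 to 1172 without 1 array, the highest without WT Scl+ replicate 1 and the lowest without either SclKO array. In SclKO against WT Scl- the 3 calls became 6 with the 60th percentile filter, 1 for 1 probe set per gene, 6 with dim values at the limit, 11 with an intensity trend and 0 to 3 without 1 array. In WT Scl+ against WT Scl- the count was 0, and 0 to 46 without 1 array, the highest without WT Scl+ replicate 1. Apart from 1 probe set per gene, the cause was not tested. A lone array is assumed to vary like the other groups.

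Replicate numbers are shared by the groups, but nothing in the labels ties them to a shared batch. With the replicate number as a block, 6 probe sets were called in SclKO against WT Scl+, 3 in SclKO against WT Scl- and 0 in WT Scl+ against WT Scl-, and no member call changed. The spread did depend on the block. In SclKO against WT Scl+ it lowered the SE of Itga2b from 0.36 to 0.16 and that of Kit 1452514_a_at from 0.32 to 0.15. The SE of Was rose from 0.3 to 0.31 and that of Alox5ap from 0.28 to 0.3. The limma adjusted p was then 0.0792 for Kit 1452514_a_at, Itga2b, Plek and Mpo, and higher for the other tested members. In SclKO against WT Scl-, Itga2b joined Plek under an unadjusted p of 0.05 with the block (-0.66 log units, SE 0.16, limma adjusted p = 0.647). Deviations of replicate 1 from its group mean correlated between groups at r of 0.205 to 0.238 across probe sets.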
